A study of Homo sapiens with 6 samples.

Results

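The metallothionein genes and MTF1, the transcription factor that drives them in response to zinc, were examined in K562 cells with and without the region of EP400 that holds TRRAP. The set was chosen by gene symbol, not by any measured value, and held 9 of the 60609 genes in the count files: the metallothioneins MT1A, MT1E, MT1F, MT1G, MT1H, MT1M, MT1X and MT2A, and MTF1. All 9 symbols were found. K562 is an established human leukaemia line with erythroid features. In both groups the endogenous EP400, which is the ATPase of TIP60, carried the FKBP12F36V degradation tag (dTAG), and every library came from cells given 500 nM dTAGV-1, the compound that triggers loss of the tagged protein, for 24 h. The WT group was complemented with wild-type EP400 from the AAVS1 safe harbor locus. The Delta-TRRAP group was complemented from the same locus with EP400 that lacks the SANT and HD domains, to which TRRAP binds. Each group had 3 replicate libraries of poly(A) RNA, and each complemented line was a single clone, so genotype and clone cannot be told apart.

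Metallothioneins are small, cysteine-rich proteins that bind zinc, copper and cadmium, buffer free zinc and scavenge reactive oxygen species. In humans the working genes lie side by side on the long arm of chromosome 16, where MT2A and the MT1 genes are made in most tissues and MT3 and MT4 are restricted to a few, MT3 to brain and MT4 to stratified epithelium. When zinc rises, MTF1 binds short metal response elements in their promoters and raises their transcription. MTF1 also acts on a few genes outside the family, such as the zinc exporter gene SLC30A1, and glucocorticoids and oxidants are further known inducers of metallothioneins.

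The promoters are shown first because the metal response elements are what the genes of the family share. The table of RefSeq promoters on GRCh38.p14 had entries for 3 of the 8 metallothionein members (MT1H, MT1X and MT2A), for MTF1 and for MT4, and MT1A, MT1E, MT1F, MT1G and MT1M had none. The 250 bases before the start are given 5′ to 3′ on the strand of the gene, at chr16:56608334-56608583 (+) for MT2A, chr16:56682220-56682469 (+) for MT1X, chr16:56669564-56669813 (+) for MT1H and chr16:56564823-56565072 (+) for MT4, a metallothionein gene that is no member and to which the results return. Capitals mark each match to the core of the metal response element, TGCACNC or TGCGCNC, or to its reverse complement on the other strand.
MT2A: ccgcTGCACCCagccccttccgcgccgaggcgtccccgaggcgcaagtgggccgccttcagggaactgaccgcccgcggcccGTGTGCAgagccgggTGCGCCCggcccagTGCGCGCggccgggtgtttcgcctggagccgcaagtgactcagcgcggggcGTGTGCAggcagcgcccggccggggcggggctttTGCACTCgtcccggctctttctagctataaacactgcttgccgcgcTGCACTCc
MT1X: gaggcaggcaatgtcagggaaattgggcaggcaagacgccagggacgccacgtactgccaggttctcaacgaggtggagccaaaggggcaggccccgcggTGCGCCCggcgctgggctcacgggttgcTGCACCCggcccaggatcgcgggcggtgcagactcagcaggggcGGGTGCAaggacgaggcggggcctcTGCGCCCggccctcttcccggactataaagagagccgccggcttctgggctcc
MT1H: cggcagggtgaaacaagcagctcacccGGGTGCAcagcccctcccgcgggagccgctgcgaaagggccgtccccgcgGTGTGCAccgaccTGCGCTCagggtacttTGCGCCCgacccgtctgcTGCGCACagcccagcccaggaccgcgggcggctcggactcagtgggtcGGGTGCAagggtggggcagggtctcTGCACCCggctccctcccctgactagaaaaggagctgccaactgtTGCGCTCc
MT4: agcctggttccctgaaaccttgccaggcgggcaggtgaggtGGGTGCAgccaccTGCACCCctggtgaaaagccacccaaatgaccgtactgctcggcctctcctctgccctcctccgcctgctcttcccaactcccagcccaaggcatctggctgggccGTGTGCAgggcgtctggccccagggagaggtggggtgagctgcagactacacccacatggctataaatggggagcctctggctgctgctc

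In the window from 250 bases before to 50 bases after the start, MT2A held 8 matches to this core, MT1H held 8, MT1X held 4 and MT4 held 3, counting both strands and letting matches on opposite strands overlap. Of the 35116 promoters of the same length, 29.6% held at least 1 match, 2.3% at least 3, 0.601% at least 4 and 0.0199% at least 8. TGCACNC alone was present in 12.1% of promoters and TGCGCNC in 20.0%. The promoter of MTF1 itself held 0 matches. The windows of MT2A, MT1X and MT1H were also rich in CpG dinucleotides, with 37, 26 and 25 against a median of 14 over all promoters, while that of MT4 held 8. A match is a string of letters in this window and not a measured binding site.

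**Figure D1:**
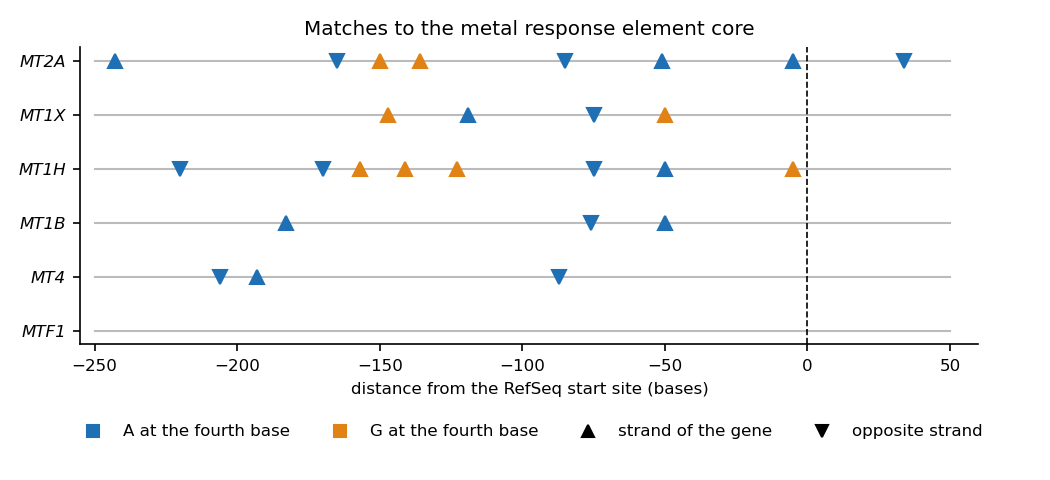
Matches to the metal response element core in promoters of metallothionein genes and MTF1, plotted by the distance of the match's centre from the RefSeq start site in bases. Blue marks TGCACNC, orange marks TGCGCNC, and the triangle points up for the strand of the gene and down for the opposite strand. MT2A and MT1H carry 8 matches each along the window, MT1X 4, MT1B and MT4 3 each, and MTF1 has 0.

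The libraries held 35076835 to 42616061 counts in genes. EP400 itself, which is counted from the tagged locus and the transgene together, averaged 5057 ± 277 normalized counts in WT and 5574 ± 1238 in Delta-TRRAP (SD, n = 3), a log2 fold change of 0.14 ± 0.11 (SE, edgeR adjusted p = 0.272), so this gene does not check the labels. The mitochondrial share of counts was 3.18% to 3.71% for WT libraries and 5.07% to 6.24% for Delta-TRRAP libraries. All 10 erythroid markers had counts in every library, and summed to 228310 to 230680 normalized counts per WT library, against 138400 to 143140 per Delta-TRRAP library. TFRC made up most of both sums, averaging 192090 in WT and 90173 in Delta-TRRAP. Of the 10, 1 was called higher and 2 lower, against 16.5% and 6.08% of all tested genes. Of 13 fibroblast markers, 8 were tested, 4 were called higher and 1 lower, against 16.5% and 6.08% of all tested genes. LUM and PDGFRA were at 0 in every library. The fibroblast list had a summed level per library of 1395 to 1560 (WT) and 1791 to 2154 (Delta-TRRAP). Its rise follows COL1A2, which averaged 1.62 normalized counts in WT and 875.5 in Delta-TRRAP. COL6A3, the largest of the list in WT, went the other way, from 1361 to 943.9, so the sum is no general rise of the list. The 5 epithelial markers summed to 23730 to 24435 (WT) and 25067 to 26805 (Delta-TRRAP). Among the 4 tested, 0 were called higher and 1 lower, against the same shares of all tested genes. The part of these shifts in the metallothionein values was not tested, and in bulk RNA fewer cells of a type and less RNA per cell cannot be told apart.

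Metallothionein RNA was scarce in both groups and came mostly from MT2A. The 8 metallothionein genes together drew 112, 105 and 98 counts in the WT libraries and 138, 129 and 152 in the Delta-TRRAP libraries, which was 0.000257% of all counts in WT and 0.000377% in Delta-TRRAP. Scaled for library size and composition (normalized counts, with TMM factors), the sums were 113.5, 100.7 and 99.7 in WT and 135.3, 125.8 and 160.8 in Delta-TRRAP. Every Delta-TRRAP library was above every WT library, and 71.1% of single tested genes were also without overlap in one direction or the other. The group means were 104.6 ± 7.68 and 140.6 ± 18.1 (SD, n = 3), a log2 ratio of 0.43, and this sum over chosen genes is a description with no test. Without MT2A the log2 ratio of the sum was 0.34.

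MT2A supplied 72.7% of the metallothionein counts in WT (exact 95% interval 67.4% to 77.5%) and 74.2% in Delta-TRRAP (69.8% to 78.4%). MT1X supplied 14.3% in WT (10.6% to 18.6%) and 10.7% in Delta-TRRAP (7.94% to 14.1%), and both pairs of intervals overlap. The other 6 members each supplied at most 5.97% in either group. These intervals cover counting error only, since the reads carry no molecular identifiers.

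Per length, the family splits into MT2A and the rest. MT2A reached 9.63 TPM (counts per length of exon, scaled to the same total in each library) over the 6 libraries. That is above 52.8% of the 19041 tested genes with an exon length and near their median of 8.05 TPM. In WT it stood at 7.97 ± 0.812 TPM and in Delta-TRRAP at 11.3 ± 1.47 (SD, n = 3). The others were each at or under 1.10 TPM in both groups, and their order was not the same in the 2 groups. In WT, MT1X at 0.836 ± 0.281 TPM and MT1G at 0.677 ± 0.132 came next and lay within each other's spread. In Delta-TRRAP, MT1G at 1.10 ± 0.280, MT1A at 1.09 ± 0.136 and MT1X at 0.865 ± 0.162 came next, whereas MT1A had been at 0.161 ± 0.139 in WT. MT1F, MT1E and MT1H stayed at or under 0.314 TPM in both groups and MT1M was at 0. The order rests on 90 counts for MT1X, 41 for MT1G and 15 to 29 for MT1A, MT1E and MT1F over the 6 libraries, too few to rank them. MTF1 reached 11.0 TPM, above 55.0% of the tested genes with an exon length.

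**Figure D2:**
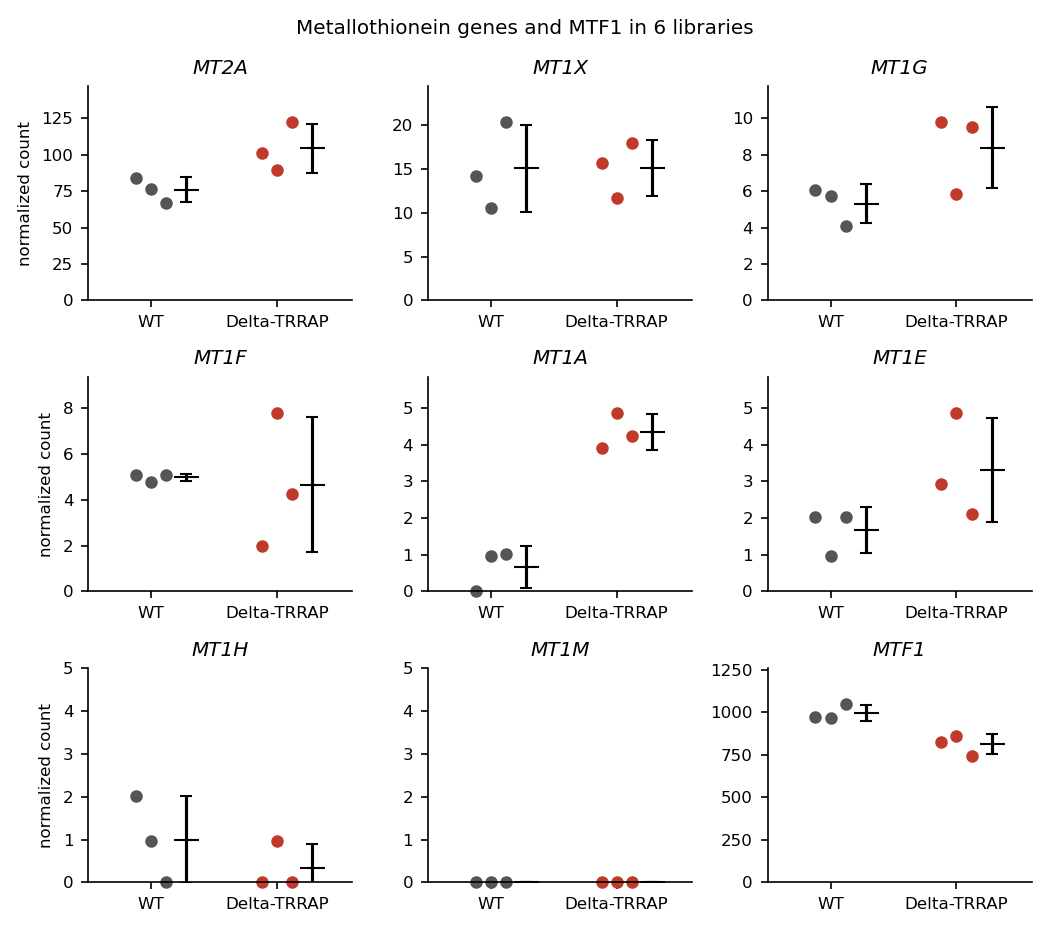
Normalized counts (vertical axis, linear from 0) of the 8 metallothionein members and MTF1 in each of 3 WT libraries (grey) and 3 Delta-TRRAP libraries (red); the bar beside the points is the mean with its SD. The points of MT2A, MT1A and, narrowly, MT1E lie higher in Delta-TRRAP and those of MTF1 lie lower without overlap. Those of MT1X and MT1G overlap between groups, and MT1M is at 0 throughout.

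The question put to each gene was whether its RNA differed between cells whose TIP60 complex can and cannot hold TRRAP. A gene was called changed at an adjusted p of 0.01 or less with a fold change of at least 2, by the quasi-likelihood test of edgeR, and a mean of at least 5 normalized counts was needed for a test. Of the 9 members, 4 passed that filter (MT2A, MT1X, MT1G and MTF1) and 0 were called, higher or lower, against 22.6% of all tested genes called, 16.5% higher and 6.08% lower. DESeq2 and limma-voom also called 0. At an unadjusted p under 0.05, edgeR gave 2 of the 4 (MT2A and MTF1), against 70.4% of all tested genes, and at an adjusted p of 0.01 with any fold it gave 1 (MTF1), against 58.3%.

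MT2A, the most widely made metallothionein, lies at chr16:56608584-56609497 (+) on GRCh38. Its normalized counts were 84.1, 76.7 and 67.2 in the WT libraries and 101.0, 89.7 and 122.7 in the Delta-TRRAP libraries. All 3 Delta-TRRAP libraries were above all 3 WT libraries, a pattern without overlap that 71.1% of the tested genes also had in one direction or the other. The means were 76.0 ± 8.50 in WT and 104.5 ± 16.8 in Delta-TRRAP, a log2 fold change of 0.45 ± 0.15 (SE) with a 95% interval of 0.13 to 0.78, or 1.37-fold. The edgeR adjusted p was 0.0151, which missed the threshold, and the interval leaves out a 2-fold difference. Over the settings tried the adjusted p ran from 0.0031 to 0.0778, the last without Delta-TRRAP replicate 3. It was 0.0041 without Delta-TRRAP replicate 2, but the fold change stayed under 2 in both.

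MT1X (chr16:56682470-56684196, + strand), the second member by counts, shares its strand and part of its span with the gene ENSG00000259827. Reads that fall on both genes are counted for neither, so the level of MT1X may be understated. Its normalized counts were 14.2, 10.6 and 20.3 in WT and 15.7, 11.7 and 18.0 in Delta-TRRAP. The groups overlapped fully, with means of 15.03 ± 4.95 and 15.1 ± 3.18. The log2 fold change was 0.01 ± 0.32 (edgeR adjusted p = 0.981), and its 95% interval of -0.68 to 0.70 takes in rises and falls but not a 2-fold change.

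MT1G (chr16:56666730-56668065, - strand) gave 6.08, 5.76 and 4.07 normalized counts in WT and 9.81, 5.85 and 9.52 in Delta-TRRAP. Delta-TRRAP replicate 2 lay within the WT range, whereas the other two stood above it. The means were 5.30 ± 1.08 and 8.39 ± 2.21 and the log2 fold change was 0.64 ± 0.42, with an edgeR adjusted p of 0.194. The 95% interval, -0.26 to 1.54, spans both no change and more than a 2-fold rise, so a difference was not detectable at this depth.

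The remaining 5 metallothionein members were under the filter and had no test in the main analysis. MT1A (chr16:56638666-56640087, + strand) had 0, 1 and 1 counts in WT and 4, 5 and 4 in Delta-TRRAP. Its groups did not overlap, as was so for 45.8% of all genes with a count, and the ratio of counts per unit of library was 7.18 with a counting interval of 1.63 to 65.5. When every gene with a count was tested, the edgeR log2 fold change of MT1A was 2.48 ± 0.97 with an adjusted p of 0.0281, so it was not called there either.

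MT1F had 5, 5 and 5 counts in WT and 2, 8 and 4 in Delta-TRRAP, a ratio of 1.03 (0.461 to 2.29) with full overlap, and at a mean of 4.82 normalized counts it stood just under the filter. MT1E had 2, 1 and 2 counts in WT and 3, 5 and 2 in Delta-TRRAP, a ratio of 2.21 (0.688 to 8.23). Normalized, its groups narrowly did not overlap, with 2.03 as the highest in WT and 2.12 as the lowest in Delta-TRRAP. The same was so for 45.8% of all genes with a count. MT1H had 2, 1 and 0 counts in WT and 0, 1 and 0 in Delta-TRRAP, a ratio of 0.368 (0.00701 to 4.58). MT1M had 0 counts in all 6 libraries. For these 4 genes no difference was detectable at this depth. MT1H carries as many matches to the metal response core as MT2A, 8 each, and had 3 and 1 counts in the WT and Delta-TRRAP groups where MT2A had 229 and 311.

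The low counts were set against how far the sequence of each gene can be placed, because the authors kept only reads that map to a single position and the metallothioneins are near copies of one another. Of all stretches of 50 bases in the exons of a gene, the share that occurs once in hg38 was 100% for MT1A, 99.3% for MT1F, 98.0% for MT1X, 95.03% for MT2A, 89.4% for MT1H, 86.0% for MT1E, 84.8% for MT1G and 81.0% for MT1M. With stretches of 100 bases it was 96.8% for MT1E and 100% for the other 7. The read length is not given in the sources used here, and stretches across exon junctions and reads with mismatches were not covered by this count.

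MTF1 (chr1:37809574-37859592, - strand), the zinc sensor that binds the metal response elements, was the member with the most reads. Its normalized counts were 972, 965 and 1050 in WT and 827, 863 and 746 in Delta-TRRAP. All 3 Delta-TRRAP libraries were below all 3 WT libraries, in the direction opposite to MT2A. Of all tested genes, 71.1% had groups without overlap in one direction or the other. The means were 995.6 ± 47.3 and 811.7 ± 59.9, and the log2 fold change was -0.29 ± 0.07 with a 95% interval of -0.43 to -0.15, or 0.816-fold. The edgeR adjusted p was 0.000993, which passed the threshold on p but not the 2-fold limit. With scaling by library size alone, which moves the median over all tested genes from 0.03 to 0.17, the log2 fold change of MTF1 was -0.16 (adjusted p = 0.0401), and with upper quartile scaling, which moves that median to 0.13, it was -0.19 (adjusted p = 0.0126).

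Most of the 6 listed genes outside the family on which MTF1 is known to act were lower in Delta-TRRAP. The list was written with earlier results of these data known. It holds both targets that MTF1 activates and a target that it represses, so a shared fall is not 1 direction of regulation. Whether the level of MTF1 bears on these genes was not tested. All 6 on the list were tested, and 5 of the 6 had a lower level at an adjusted p of 0.01, against 27.6% of all tested genes lower and 30.7% higher by that rule. With the 2-fold limit 1 of the 6 was called lower, against 6.08% of all tested genes, and 0 higher. The count called lower was 2 with no filter and without WT replicate 3, where SLC40A1 passed the limit. The median log2 fold change of the list was -0.74 against 0.03 for all tested genes. The called gene was SLC39A10, a zinc importer gene that MTF1 is known to repress, at 6829, 6629 and 6645 normalized counts in WT and 1953, 2184 and 1808 in Delta-TRRAP. The groups were far apart and the log2 fold change was -1.76 ± 0.06 (edgeR adjusted p = 3.03e-12).

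Listed targets that MTF1 activates fell too, each by less than 2-fold. SLC30A1, which encodes the zinc exporter of the plasma membrane, had 3041, 2940 and 3032 normalized counts in WT and 2179, 2223 and 2200 in Delta-TRRAP, a log2 fold change of -0.45 ± 0.05 (edgeR adjusted p = 6.71e-07). SELENOH, a nuclear selenoprotein gene, averaged 938 in WT and 546 in Delta-TRRAP (-0.78 ± 0.08, adjusted p = 2.60e-07). The iron exporter gene SLC40A1 averaged 6235 and 3144 (-0.99 ± 0.05, adjusted p = 1.16e-10), close to the 2-fold limit. None of these 3 genes overlapped between groups, as was so for 71.1% of all tested genes, and their direction was opposite to that of MT2A.

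GCLC, the catalytic subunit of glutathione synthesis, averaged 1309 in WT and 1081 in Delta-TRRAP with a log2 fold change of -0.28 ± 0.06 (edgeR adjusted p = 0.000635). Its adjusted p was 0.0413 with scaling by library size alone and 0.0156 with upper quartile scaling. PGF, a growth factor gene of the VEGF family, had 18.6 and 11.4 normalized counts and an adjusted p of 0.0542. The promoters of SLC30A1, GCLC and SLC40A1 held 2 matches each to the metal response core, against at least 2 in 8.6% of all promoters. That of SELENOH held 1, the windows of SLC39A10, the called gene, held 0 and 1, and those of PGF held 0.

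**Figure D3:**
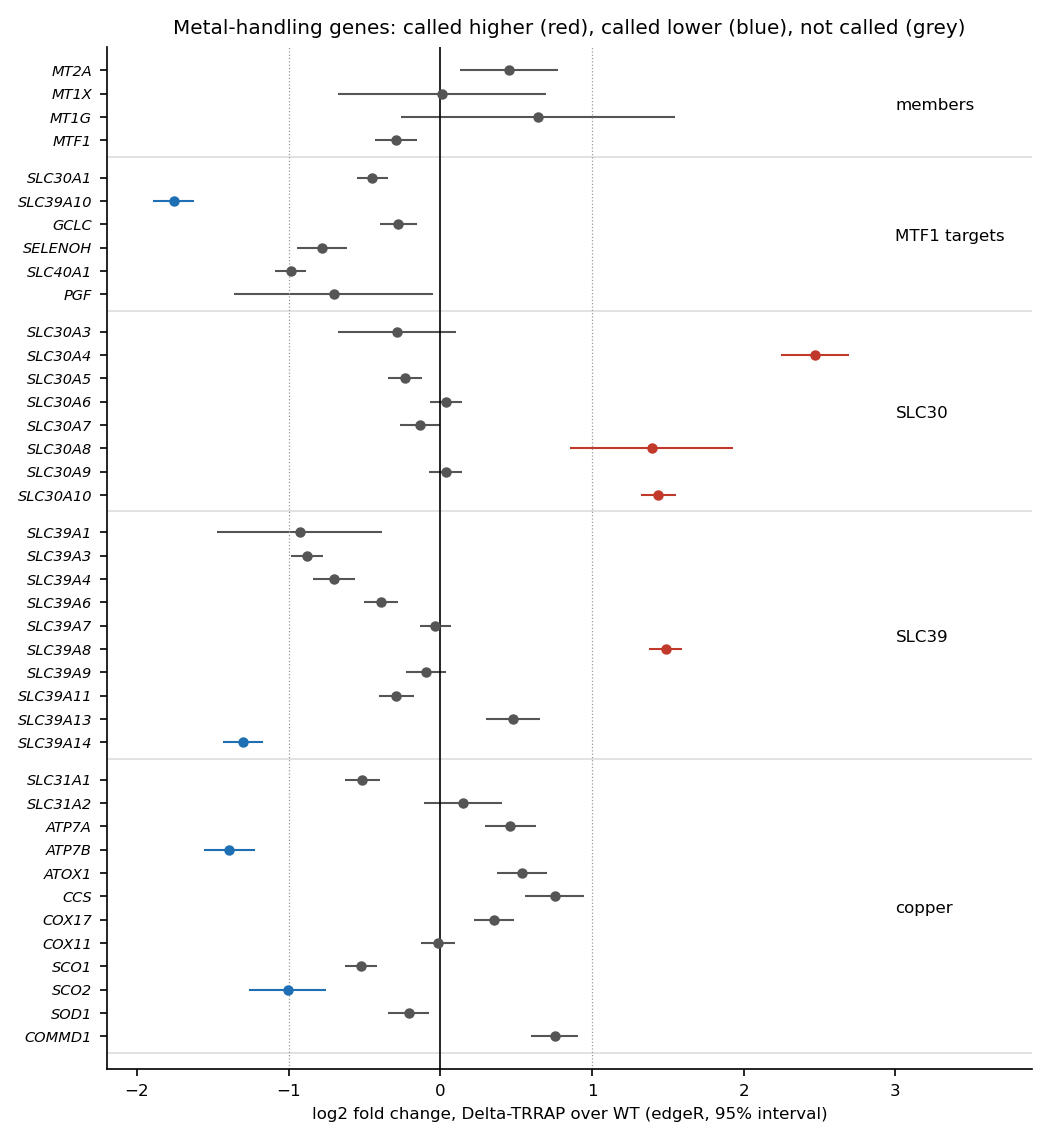
Log2 fold change of Delta-TRRAP over WT (horizontal axis, points, with 95% intervals from edgeR) for the tested members and for tested genes of the lists of MTF1 targets, SLC30 and SLC39 zinc transporters and copper genes; SLC30A1 and SLC39A10 are drawn once, among the MTF1 targets. Dotted lines mark the 2-fold limits, red and blue mark genes called higher and lower. The members lie between -0.29 and 0.64, the MTF1 targets all lie below 0, and SLC30A4 lies farthest to the right at 2.47.

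Zinc transporter genes, which set the zinc that metallothioneins buffer, were called in both directions. Of the 10 SLC30 genes, whose products move zinc out of the cytosol, 9 were tested, 3 were called higher and 0 lower, where all tested genes gave 16.5% and 6.08%. SLC30A4, a vesicular transporter gene, averaged 72.3 normalized counts in WT and 401 in Delta-TRRAP (log2 fold change 2.47 ± 0.11, edgeR adjusted p = 2.10e-11). SLC30A10, better known for manganese export, averaged 712 and 1927 (1.44 ± 0.05, adjusted p = 5.59e-12), and SLC30A8, the zinc transporter gene of insulin granules, averaged 14.9 and 39.3 (1.39 ± 0.25, adjusted p = 0.00016). The median of the list was 0.04.

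Of the 14 SLC39 genes, whose products move zinc into the cytosol, 11 were tested, 1 was called higher and 2 lower (16.5% and 6.08% of all tested genes), with a median log2 fold change of -0.39. SLC39A8 averaged 5700 normalized counts in WT and 15958 in Delta-TRRAP (1.49 ± 0.05, edgeR adjusted p = 1.46e-12). SLC39A14, which like SLC39A8 also carries manganese and iron, went the other way, from 5179 to 2098 (-1.30 ± 0.06, adjusted p = 6.48e-11), and the other gene called lower was SLC39A10. At an adjusted p of 0.01 with any fold, 2 of the 11 were positive and 7 negative, against 30.7% and 27.6% of all tested genes. Summed over the SLC39 list, the WT libraries held 30053 to 30470 normalized counts and the Delta-TRRAP libraries 30082 to 30945, and these ranges overlap. In these sums the rise of SLC39A8 stands against the falls of other genes of the list.

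Copper genes matter here because metallothioneins also store copper. All 12 on the list were tested, and 0 were called higher and 2 lower (16.5% and 6.08% of all tested genes). At an adjusted p of 0.01 with any fold, 5 were positive and 5 negative (30.7% and 27.6% of all tested genes). ATP7B, a copper exporter gene, averaged 2437 normalized counts in WT and 928 in Delta-TRRAP (log2 fold change -1.39 ± 0.08, edgeR adjusted p = 5.45e-10). SCO2, which delivers copper to cytochrome oxidase, averaged 194.6 and 96.9 (-1.01 ± 0.12, adjusted p = 2.18e-06), at the edge of the 2-fold limit. Its call was lost, and the list's count called lower fell to 1, in 7 settings with log2 fold changes from -0.87 to -0.9987: library size scaling, upper quartile scaling, a minimum mean of 50, and without WT replicate 1 or 2 or Delta-TRRAP replicate 2 or 3.

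Oxidant and heat shock genes, which mark other inducers of the family, held no called gene. Of 15 listed, 12 were tested and 0 were called in either direction, against 16.5% of all tested genes called higher and 6.08% lower. At an adjusted p of 0.01 with any fold, 1 was positive and 6 were negative, against 30.7% and 27.6% of all tested genes. The log2 fold changes ran from -0.48 to 0.27. HMOX1, the heme oxygenase gene induced by cadmium and oxidants, had 1 count in the WT libraries and 2 in the Delta-TRRAP libraries in all.

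The other metallothionein genes and pseudogenes were almost silent except for MT4. Of 13 listed, 12 were found in the files, 6 had a count and 1 was tested. MT4 (chr16:56565073-56568957, + strand), the metallothionein gene of stratified epithelium, had 0 counts in all 3 WT libraries and 42, 40 and 40 counts in the Delta-TRRAP libraries. Normalized, these were 41.2, 39.0 and 42.3, and the mean of 40.8 ± 1.69 was at least 13.6-fold higher than a floor of 3 normalized counts per library. The call was higher (edgeR adjusted p = 5.27e-08). Per length MT4 was at 0 TPM in WT and at 14.98 ± 0.386 TPM in Delta-TRRAP, where MT2A was at 7.97 ± 0.812 and 11.3 ± 1.47. MT4 stood above MT2A in the Delta-TRRAP libraries only per length, with 270 bases of exon against 914. By counts MT2A was the higher of these genes there, at 103, 92 and 116. The exon lengths were not corrected for fragment size, which limits TPM for a gene as short as MT4. BBS2 lies on the opposite strand of MT4, and its log2 fold change was 0.30 ± 0.07 (adjusted p = 0.000717).

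Among the rest, MT1P1 had 0, 4 and 2 counts in WT and 1, 3 and 5 in Delta-TRRAP, and MT1XP1 had 2, 0 and 2 and then 1, 1 and 5. MT1L had 2 counts over the 6 libraries, and MT3 and MT1HL1 had 1 each. MT1B, MT1JP, MT1DP, MT1CP, MT1P3 and MT2P1 had 0. MT1L, MT1B, MT1JP, MT1DP and MT1CP overlap other annotated entries on their strand, and reads that fall on 2 genes are counted for neither.

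MT4 was the only metallothionein gene called among those tested. Within 1000 kb of the start of MT2A lay 78 genes, of which 32 were tested, 5 were called higher and 0 lower. The share called higher is near the 16.5% of all tested genes. MT4 was at -43.5 kb, with negative distances lying before MT2A. The nearest called gene on the other side was NLRC5, an activator of MHC class I genes, 381 kb after it, at 3.0, 2.9 and 1.0 normalized counts in WT and 45.1, 79.0 and 73.0 in Delta-TRRAP (log2 fold change 4.75 ± 0.39, edgeR adjusted p = 4.24e-08). The other 3, named after their values were seen, were SLC6A2, CES1P1 and CES1, at -953, -848 and -775 kb from the start of MT2A. Between these and the cluster, NUDT21 at -156 kb, also named after its value was seen, had a log2 fold change of -0.77 ± 0.05 (edgeR adjusted p = 2.38e-09). It did not reach 2-fold. OGFOD1 at -157 kb had -0.23 ± 0.05 and BBS2 at -25.9 kb had 0.30 ± 0.07.

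**Figure D4:**
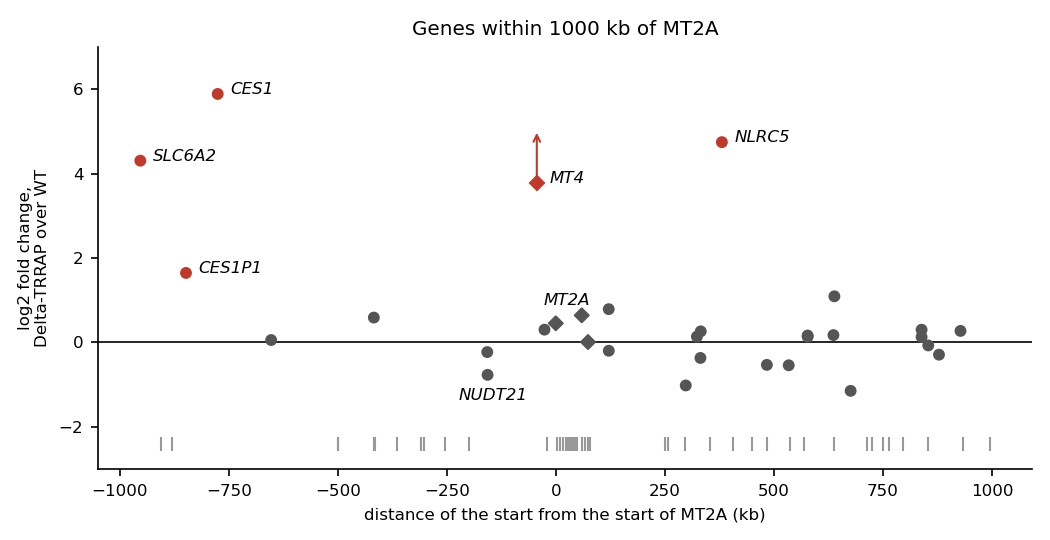
Log2 fold change of Delta-TRRAP over WT (vertical axis) of tested genes within 1000 kb of the start of MT2A, with 1 of them left out, by the distance of their start in kb (horizontal axis); diamonds are metallothionein genes, red marks genes called higher, and grey ticks near the bottom are genes under the filter. MT4 is drawn at its lower bound of 13.6-fold with an arrow, and the tested metallothionein members lie between 0.01 and 0.64.

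The genes whose levels ran most closely with the summed metallothionein level over the 6 libraries were ANKRD54 (Pearson r = 0.996), AP002807.1 (0.996), ZNF280D (0.995), RMI2 (0.994) and SLC35B3 (0.994). They were taken from 11459 genes averaging at least 100 normalized counts, by the correlation of log2 CPM, and are given with no p. The CPM of each gene used TMM factors and that of the summed level used library size alone, so the scalings differ. The 6 points fall into 2 groups, and Delta-TRRAP replicate 3 was the highest library for the summed level and for each of the 5 genes. ANKRD54 ranged between 671.5 and 700.2 normalized counts in WT and between 765.3 and 842.0 in Delta-TRRAP.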

How the data were processed

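Poly(A) RNA-seq of 3 WT and 3 Delta-TRRAP K562 libraries was used, with groups and replicate numbers taken from the sample titles. The authors deposited counts per gene for each library: reads were aligned to hg38 with STAR, reads with a single position were kept, and HTSeq 2.0.2 assigned them to GENCODE genes (reverse-stranded, union mode). Paralogs with near-identical exons can lose reads in this way. The authors' normalized counts and their own comparison of the groups were not used, nor were 3 per-sample columns of another condition.

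The deposited counts went into edgeR 4.0.16 (R 4.3.3; TMM, quasi-likelihood F test, group as the only term) on 19114 of 34998 genes with a count, those averaging at least 5 normalized counts, with Benjamini-Hochberg adjustment over all of them. TMM factors were computed on those genes. The thresholds follow the study's methods, which used DESeq2. DESeq2 1.42.0, limma-voom (limma 3.58.1), other scalings and filters, a fold limit of 1.5, a replicate block and leaving out each library were alternatives. The fit was tested on simulated data. Pairs of libraries of a group differed by 4.93 to 15.5 times the chi-square of counting alone, so each counted as a replicate. Because each group is a single clone, p-values measure the spread between its libraries.

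Intervals of shares and count ratios are exact at 95%. Positions and exon lengths came from GENCODE release 44 (GRCh38), which is not the authors' release, and promoters from RefSeq. Named genes were all members, other metallothionein genes with a count, tested MTF1 targets, up to 4 called genes of each other list with the largest fold change, and the 5 genes most correlated with the summed level. Further neighbours of the cluster were named after their values were seen. Other lists were written from general knowledge. Members and lists were chosen with earlier results of these data known. The value of 1 neighbour of the cluster is not reported here.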

Additional observations from a re-analysis of the deposited data

How the results depend on the processing

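Of the tested members, 0 were called higher and 0 lower under every scaling, filter, tool, fold limit, block and left-out library tried. MT2A kept its direction throughout and passed the adjusted p of 0.01, at a fold under 2, with library size scaling (log2 fold change 0.59), upper quartile scaling (0.55) and a minimum mean of 50 (0.53), and leaving out 1 library gave 0.32 to 0.56. MTF1 was -0.16 with library size scaling and -0.19 with upper quartile scaling, both no longer past the adjusted p. MT1X had no stable sign: -0.014 with no filter and -0.21 to 0.28 with 1 library left out. The cause of these shifts was not tested. The summed metallothionein level gave a log2 ratio of 0.56 with library size scaling and 0.32 to 0.50 with 1 library left out. Same-numbered replicates did not deviate together (correlations -0.0108, -0.035 and -0.0241), and with the replicate block MT2A was 0.45 and MTF1 -0.29, with no call of a member changed. MT1G and MT1X fall below a minimum mean of 50 and have no value there. Over all genes, 3160 were called higher and 1162 lower, against 1291 and 673 at a minimum mean of 50, where fewer genes were tested. Of 234 recomputed fold changes of named genes outside the family, 0 changed direction and 232 kept their side of the adjusted p of 0.01, the exceptions being 2 of GCLC. With the 2-fold limit as well, SCO2 lost its call in 7 settings, 4 of them with 1 library left out, and SLC40A1 was called in 2, with no filter (-1.01) and without WT replicate 3 (-1.02). Of 240 list counts 18 moved by more than 1.5 times. At 98 to 152 counts a library for the whole family, depth limits every MT1 gene.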

Other observations

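Glucocorticoids are a further known inducer of MT2A, and 8 glucocorticoid response genes were listed. All 8 were tested, 1 was called higher and 2 lower, against 16.5% and 6.08% of all tested genes, with a median log2 fold change of -0.24. ZBTB16, a zinc finger repressor gene, went from a mean of 76.6 normalized counts in WT to 6.25 in Delta-TRRAP (log2 fold change -3.56 ± 0.29, edgeR adjusted p = 3.16e-08). TSC22D3, which encodes the glucocorticoid-induced leucine zipper, went from 132.8 to 17.3 (-2.95 ± 0.23, adjusted p = 1.63e-08). SGK1, a kinase gene, went from 386 to 1096 (1.504 ± 0.07, adjusted p = 3.13e-11). The log2 fold change of MT2A beside these was 0.45 ± 0.15.

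Of the 19 listed neighbours of the metallothionein cluster on the long arm of chromosome 16, 17 were tested, 1 was called higher (NLRC5) and 0 lower, against the same shares, with a median log2 fold change of 0.14.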
